A study of Rattus norvegicus with 12 samples.

Results

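The 10 genes described here encode heat-shock chaperones of the cytosol and of the mitochondrial matrix. They are the Hsp90 proteins HSP90AA1 and HSP90AB1, the Hsp70 protein HSPA8, the Hsp110 proteins HSPA4, HSPA4L and HSPH1, the J-domain proteins DNAJA1 and DNAJB1, and the mitochondrial partners HSPD1 and HSPE1. They were chosen by name, as 10 of the 32883 rat genes quantified, and each was found through the Ensembl identifier that the study's gene tables pair with its symbol. The table of expression levels paired 8 of them. HSPA4L and DNAJB1 were paired only by the study's table of genes that differed between the light and the dark phase, so for HSPA4L and DNAJB1 the identifier itself depended on that difference, and their values are given as a description.

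Molecular chaperones bind other proteins while these are unfolded or immature, and many of them bind and release in cycles driven by ATP. In the cytosol, J-domain proteins deliver clients to Hsp70, Hsp110 proteins exchange its nucleotide, and Hsp90 with its co-chaperones completes the folding of kinases, steroid receptors and many other clients. In the mitochondrial matrix, Hsp60 forms a barrel that Hsp10 closes as a lid. Many of these genes are transcribed both at rest and, through heat-shock factors, when misfolded proteins accumulate.

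Choroid plexus, the epithelial tissue of the brain ventricles that secretes cerebrospinal fluid, had been taken as whole tissue from the lateral ventricles and the fourth ventricle of male Sprague-Dawley rats aged 9 weeks. There were 6 rats in the light phase, sampled at ZT8, which is 8 h after the lights went on, and 6 rats in the dark phase, sampled at ZT20, which is 8 h after the lights went off. All rats were housed under equal periods of light and darkness with free access to food and water, were anesthetized with xylazine and ketamine before they were killed, and the dark-phase rats were handled in darkness apart from a red lamp. Each phase was sampled at a single hour, and each library comes from bulk tissue, in which fewer cells of a type and less RNA per cell cannot be told apart.

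Levels are given as TPM, the share of all transcripts that a gene holds after correction for transcript length. Differences between the phases are log2 fold changes of dark against light from limma on log2(scaled TPM + 0.5), and a gene was called at a false discovery rate (FDR) below 0.05 over the 12513 genes whose mean reached 1 TPM. All 10 chaperones passed that limit. The number of reads behind a value is unknown, but the relative depth, estimated from steps in the values of 580 weakly expressed genes, ranged from 0.892 to 1.37 in the light and from 0.890 to 1.09 in the dark phase. All 8 epithelial markers were present (3 called higher and 1 lower in the dark phase), with a summed level of 264051 to 314524 TPM in the light and 297885 to 321763 TPM in the dark phase. Of the other markers that could be identified, those of fibroblasts (2 of 6) summed to 135 to 216 TPM in the light against 145 to 228 TPM in the dark phase, and that of endothelium (1 of 6) was at 58.5 to 124 TPM against 56.7 to 96.8 TPM. Those of mural cells (2 of 5) summed to 170 to 420 TPM against 165 to 250 TPM, with TAGLN lower in the dark phase (log2 fold change -0.72, limma, FDR = 0.0271). The value of TAGLN is a description. Among the genes followed here, the table of levels held only light-phase means from 54.2 TPM, and TAGLN was at 54.7 TPM. Hemoglobin HBB (1 of 4 for red blood cells) ranged from 1406 to 5535 TPM against 839 to 2190 TPM, and no macrophage marker had an identifier. The summed ranges of each of these lists overlapped between the phases. TTR made up most of the epithelial sum, so this overlap says little about the other epithelial markers. Of these, KL, CLIC6 and OTX2 were higher and AQP1 was lower in the dark phase, each without overlap of the libraries. The part of these lists in the results was not tested.

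Promoter windows of 250 bases before to 50 bases after the annotated start were found in RefSeq (assembly GRCr8) for 9 of the 10 genes. HSP90AA1 had no entry. The windows were searched on both strands for the heat-shock element, the site that heat-shock factors bind, written either as 3 units (GAANNTTCNNGAA) or as 2 units (GAANNTTC or TTCNNGAA), where each 3-unit match also contains both 2-unit forms. The 3-unit form lay in 0.798% of all 33469 promoter windows of this length and in 5 of the 9 chaperone windows, those of HSPA8, HSPH1, DNAJA1, HSPD1 and HSPE1. The 2-unit forms lay in 8.59% and 8.77% of all windows, respectively, and in 6 of the 9 each. The E-box CACGTG, the site of the circadian CLOCK and BMAL1 proteins, lay in 6.42% of all windows and only in that of HSPH1 among the 9, at bases -70 to -65.

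The sequences of the following stretches are given 5′ to 3′ on the strand of the gene and end at the base before the annotated start. They are those that hold the matches before the start of 4 chaperones and, for contrast, that of HSP90AB1, which holds none. Capitals mark the heat-shock element matches. In order, their positions are chr8:50080264-50080513, plus strand; chr12:10427218-10427367, plus strand; chr9:64084227-64084326, plus strand; chr19:41431142-41431201, minus strand; and chr9:22930273-22930422, plus strand.
HSPA8: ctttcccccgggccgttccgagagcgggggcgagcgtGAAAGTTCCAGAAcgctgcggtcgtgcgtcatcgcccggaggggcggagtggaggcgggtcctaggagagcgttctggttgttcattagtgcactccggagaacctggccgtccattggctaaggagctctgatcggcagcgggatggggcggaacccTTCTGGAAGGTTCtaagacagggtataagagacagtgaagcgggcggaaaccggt
HSPH1: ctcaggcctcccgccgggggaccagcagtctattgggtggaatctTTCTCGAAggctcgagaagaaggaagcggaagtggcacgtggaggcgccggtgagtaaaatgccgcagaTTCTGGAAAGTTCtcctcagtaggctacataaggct
HSPE1: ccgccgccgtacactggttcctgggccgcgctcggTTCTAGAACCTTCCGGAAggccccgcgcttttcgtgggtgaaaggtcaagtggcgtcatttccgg
DNAJB1: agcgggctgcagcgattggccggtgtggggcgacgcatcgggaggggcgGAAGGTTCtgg
HSP90AB1: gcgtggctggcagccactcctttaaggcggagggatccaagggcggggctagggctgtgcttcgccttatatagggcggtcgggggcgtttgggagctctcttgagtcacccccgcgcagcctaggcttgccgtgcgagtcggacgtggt

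HSPA8 held 3-unit matches at bases -213 to -201 and -55 to -43, and HSPH1 held one at -36 to -24 together with a 2-unit match further upstream. HSPD1 and HSPE1 are transcribed in opposite directions from starts 290 bases apart, and 211 bases of their windows are the same DNA. The overlapping matches at -65 to -48 of HSPE1 are therefore also those at -242 to -225 of HSPD1, so these windows count the same site. DNAJA1 held its 3-unit match after the start, at bases 9 to 21, and a 2-unit match before it, at -181 to -174, in a stretch not printed here. DNAJB1 held 2-unit matches at -11 to -4 and 17 to 24. HSPA4L held a 2-unit match at 38 to 45, and HSP90AB1 and HSPA4 held no match of any form. The plot of motif positions shows these matches along the windows, and a match is a description of letters, not of binding.

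**Figure D1:**
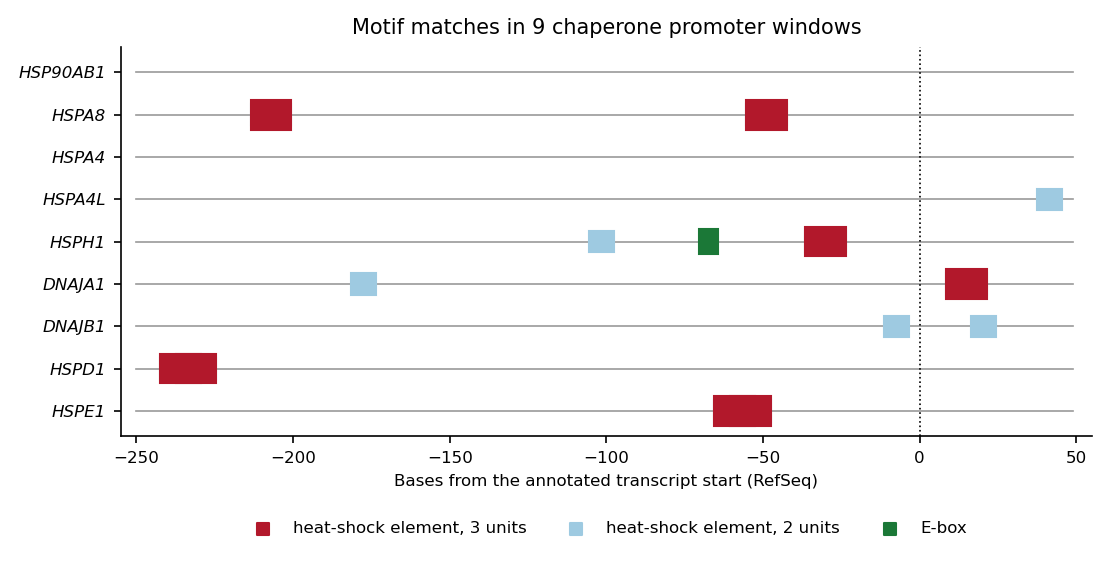
Position of motif matches in the 9 promoter windows, in bases from the annotated transcript start (x axis, dotted line at the start), with 1 line per gene. Dark red boxes are 3-unit heat-shock elements, pale blue boxes are 2-unit elements outside a 3-unit match, and the green box is the E-box of HSPH1; HSP90AB1 and HSPA4 have no box.

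Of the 8 chaperones paired by the table of levels, 3 rose in the dark phase (HSP90AA1, HSP90AB1 and HSPH1) and 0 fell. Among all 1997 genes paired in that way, 21.8% were called, 8.96% higher and 12.8% lower in the dark phase, against 17.3%, 9.61% and 7.7% of all 12513 genes tested. With HSPA4L and DNAJB1 added, whose identifiers depended on the difference between the phases, 4 of 10 were called higher. The median log2 fold change was 0.15 over the 8 genes, -0.030 over the 1997 genes paired in that way and -0.0043 over all genes tested. The summed level of the 10 chaperones was 2619 to 3363 TPM in the light phase (median 2788) and 3249 to 4064 TPM in the dark phase (median 3660). Of the difference of 776 TPM between the mean sums, 537 TPM, or 69.2%, lay in HSP90AA1 and HSP90AB1.

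HSP90AA1 encodes the inducible form of cytosolic Hsp90. It ranged from 364 to 513 TPM with a median of 416 TPM in the light-phase libraries and from 656 to 816 TPM with a median of 766 TPM in the dark-phase libraries. All 6 dark-phase libraries exceeded the highest light-phase library. The mean rose from 429 ± 62.5 TPM to 747 ± 60.9 TPM (n = 6 each, SD), a log2 fold change of 0.79 ± 0.08 (SE, limma, FDR = 3.81e-05).

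HSP90AB1, the constitutive form of the same protein, ranged from 487 to 669 TPM (median 535) in the light phase and from 693 to 832 TPM (median 785) in the dark phase. Its groups did not overlap either, a pattern that 6.71% of the 1997 genes and 5.12% of all genes tested showed in this direction and 6.66% and 3.14% in the other. The mean rose from 553 ± 71.9 TPM to 772 ± 49.3 TPM (n = 6 each, SD), a log2 fold change of 0.47 ± 0.07 (SE, limma, FDR = 0.000662).

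HSPA8 encodes Hsc70, the constitutive Hsp70 of the cytosol, and was on average the most abundant of the 10 in both phases. It ranged from 610 to 849 TPM (median 676) in the light phase and from 743 to 888 TPM (median 770) in the dark phase. The groups overlapped, since light-phase libraries 2 and 3 reached the dark-phase range. The log2 fold change was 0.17 ± 0.07 (SE), with a 95% interval of 0.02 to 0.32, and did not pass the test over all genes (limma, FDR = 0.123). Without light-phase library 3 it was 0.23 and passed (limma, FDR = 0.0151), but it did not pass in the other 20 of 21 alternative settings.

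The Hsp110 proteins are large relatives of Hsp70 that act as its nucleotide exchange factors. HSPH1 ranged from 66.0 to 105 TPM (median 71.6) in the light phase and from 101 to 122 TPM (median 113) in the dark phase. The groups met only through light-phase library 3, and the next light-phase library was at 81.4 TPM. The mean rose from 77.1 ± 14.8 TPM to 112 ± 6.92 TPM (n = 6 each, SD), a log2 fold change of 0.54 ± 0.09 (SE, limma, FDR = 0.00196).

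HSPA4 encodes another Hsp110 protein and had the lowest coefficient of variation of the 10 in both phases (5.37% and 2.47% of the mean TPM). It ranged from 114 to 130 TPM (median 125) in the light phase and from 127 to 136 TPM (median 130) in the dark phase, and the groups overlapped. Its log2 fold change was 0.07 ± 0.05 (SE), with a 95% interval of -0.02 to 0.17 (limma, FDR = 0.299), and was 0.0354 without light-phase library 2. HSPA4L, its close relative, ranged from 43.3 to 54.8 TPM (median 51.3) in the light phase and from 69.9 to 84.1 TPM (median 80.6) in the dark phase, without overlap. The means of HSPA4L were 50.2 ± 4.56 TPM and 78.0 ± 6.27 TPM (n = 6 each, SD), with a log2 difference of 0.62, given as a description because its identifier came from the table of differing genes.

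The J-domain proteins hand clients to Hsp70. DNAJA1, of the type closest to bacterial DnaJ, ranged from 239 to 314 TPM (median 266) in the light phase and from 265 to 341 TPM (median 296) in the dark phase. Most of both ranges was shared. Its log2 fold change was 0.13 ± 0.07 (SE), with a 95% interval of -0.02 to 0.29 (limma, FDR = 0.216). DNAJB1, the Hsp40 that cooperates with Hsp70 after stress, ranged from 42.3 to 62.8 TPM (median 48.7) in the light phase and from 48.1 to 66.9 TPM (median 61.7) in the dark phase. Its means were 49.9 ± 7.98 TPM and 59.9 ± 6.48 TPM (n = 6 each, SD), and the groups overlapped.

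The mitochondrial chaperones of this set did not pass the test. HSPD1, which encodes Hsp60, ranged from 123 to 153 TPM (median 137) in the light phase and from 136 to 156 TPM (median 144) in the dark phase, with a log2 fold change of 0.06 ± 0.05 (SE, limma, FDR = 0.369). HSPE1, which encodes Hsp10, ranged from 420 to 551 TPM (median 487) and from 398 to 667 TPM (median 503), with a log2 fold change of 0.07 ± 0.12 (SE, limma, FDR = 0.731). The dark-phase range of HSPE1 enclosed the light-phase range. The 95% intervals of the log2 fold change were -0.03 to 0.16 for HSPD1 and -0.19 to 0.33 for HSPE1.

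**Figure D2:**
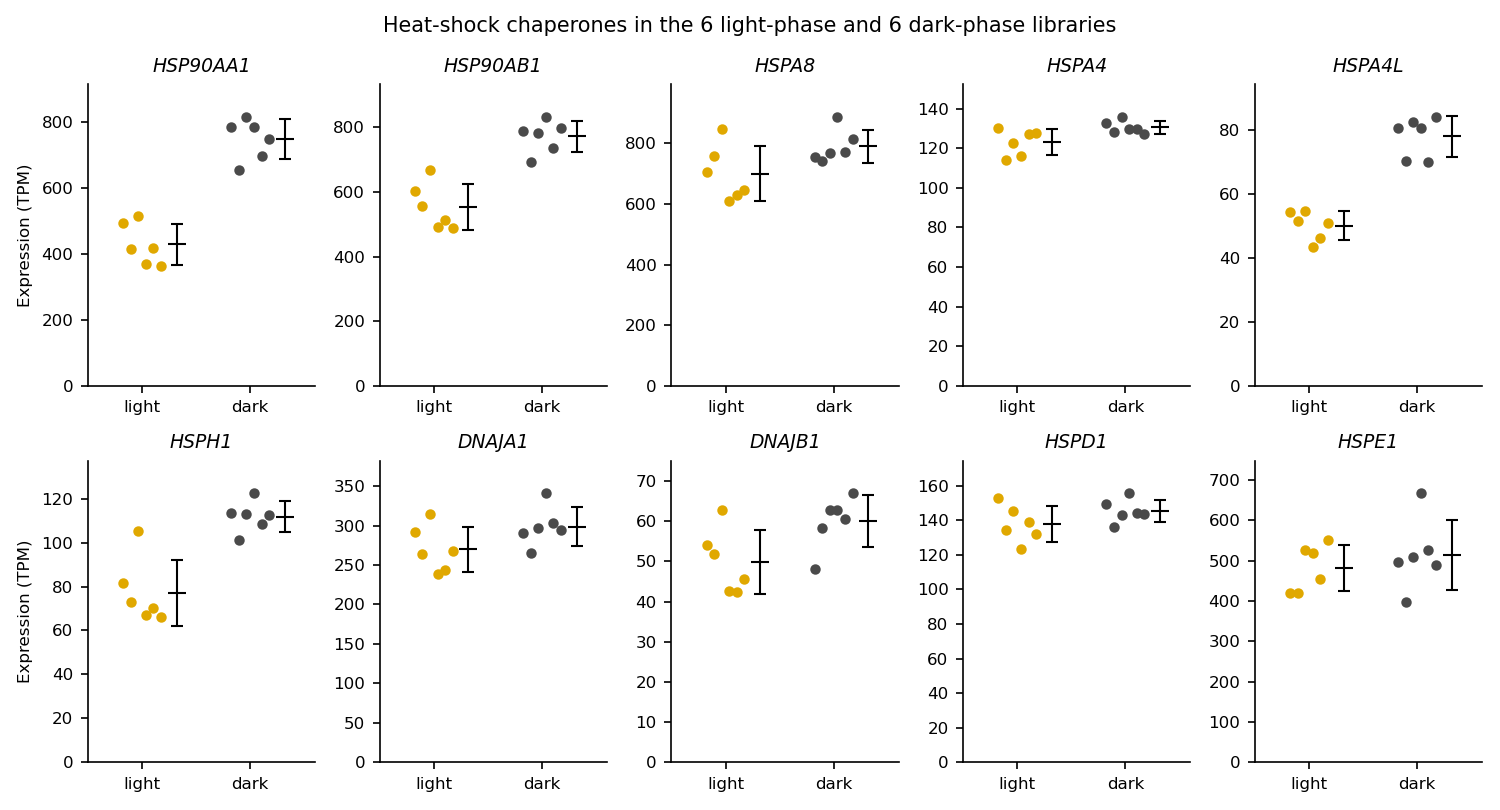
Expression of the 10 chaperones in TPM (y axis, starting at 0) in each of the 6 light-phase (yellow) and 6 dark-phase (gray) libraries, with the mean and SD beside the points. HSP90AA1, HSP90AB1 and HSPA4L are without overlap between the phases, and HSPH1 overlaps only through 1 light-phase library at 105 TPM.

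The order of the levels, a comparison between genes per transcript length, was nearly the same in both phases. In the light phase it ran HSPA8, HSP90AB1, HSPE1, HSP90AA1, DNAJA1, HSPD1, HSPA4, HSPH1, HSPA4L and DNAJB1, and in the dark phase HSP90AA1 stood before HSPE1. The ranges of the first 4 genes overlapped from one to the next in both phases, whereas DNAJA1 was apart from its neighbors on either side. HSPA4L and DNAJB1 overlapped in the light phase (50.2 and 49.9 TPM on average) and were apart in the dark phase (78.0 and 59.9 TPM).

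Related or partnered chaperones were then compared within each library by the ratio of their levels, for which the scaling of the library has no effect. The ratios were tested by two-sided exact permutation over the 12 libraries, with Benjamini-Hochberg adjustment over 5 ratios. Those with HSPA4L or DNAJB1 are given as a description, and the adjusted p over the other 3 alone, a choice made after seeing the data, is given as well. HSP90AA1 stood at 0.742 to 0.821 of HSP90AB1 in the light phase (median 0.761) and at 0.938 to 1.04 of it in the dark phase (median 0.945). The groups did not overlap, and the log2 ratio rose by 0.32 ± 0.04 (SE, n = 6 each, exact permutation p = 0.00216, the smallest possible here, adjusted p = 0.00541 over 5 and 0.00649 over 3). The inducible and the constitutive Hsp90 transcripts were thus near equal in the dark phase. The inducible one was the lower in every light-phase library and in 5 of the 6 dark-phase libraries.

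HSPH1 stood at 0.517 to 0.857 of HSPA4 in the light phase and at 0.788 to 0.945 of it in the dark phase. Only light-phase library 3 reached into the dark-phase range. The log2 ratio rose by 0.46 ± 0.11 (SE, n = 6 each, exact permutation p = 0.0108, adjusted p = 0.018 over 5 and 0.0162 over 3). HSPA4L stood at 0.363 to 0.452 of HSPA4 against 0.539 to 0.662 of it, a log2 difference of 0.54 ± 0.07 (SE), again as a description.

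DNAJB1 stood at 0.170 to 0.200 of DNAJA1 in the light and 0.165 to 0.227 in the dark phase (log2 difference 0.12 ± 0.08, SE, as a description). HSPD1 stood at 0.237 to 0.363 of HSPE1 against 0.233 to 0.342, with a log2 difference of -0.01 ± 0.12 (SE, n = 6 each, exact permutation p = 0.955, adjusted p = 0.955 over 5 and over 3). The ratio of the Hsp60 to the Hsp10 transcript thus covered nearly the same range in both phases.

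**Figure D3:**
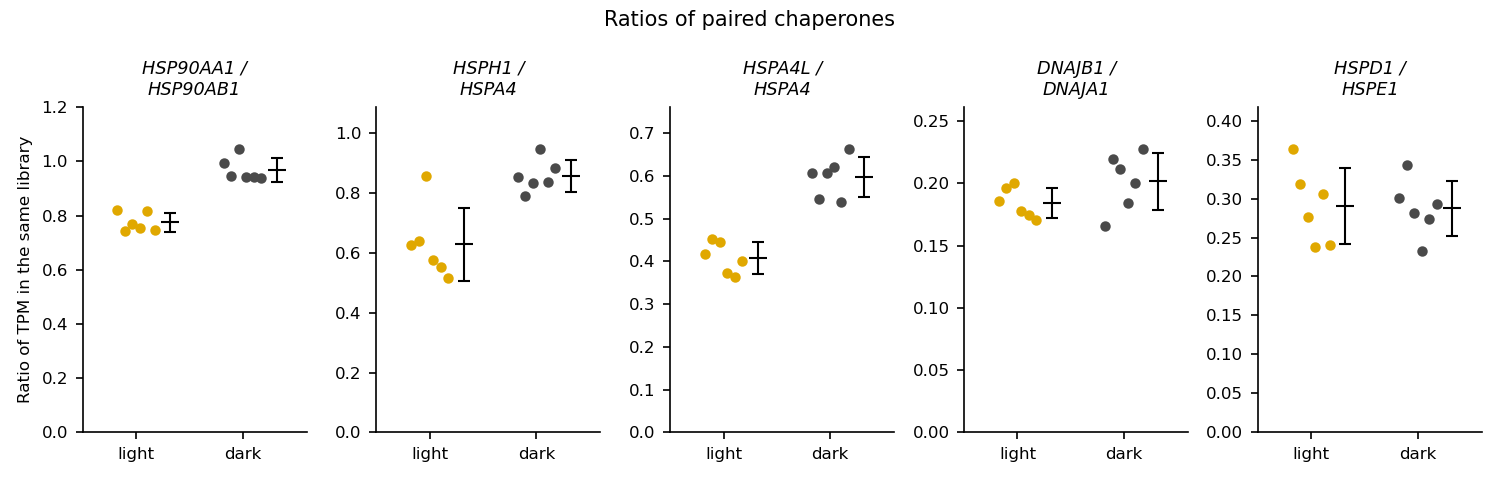
Ratio of the TPM of paired chaperones within the same library (y axis, starting at 0) for the 6 light-phase (yellow) and 6 dark-phase (gray) libraries, with the mean and SD beside the points. HSP90AA1 over HSP90AB1 and HSPA4L over HSPA4 separate the phases, and HSPD1 over HSPE1 does not.

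Within a phase the same libraries stood high or low for several of the chaperones. Light-phase library 3 was the highest of its phase for 7 of the 10 genes, with HSPE1, HSPA4 and HSPD1 the exceptions, and dark-phase library 4 was the highest of its phase for 6. Dark-phase library 2 was the lowest of its phase for 7 of the 10. Correlations of each gene with the mean within-phase profile of the other 9 were highest for DNAJA1 (r = 0.927), HSP90AB1 (r = 0.895) and HSPH1 (r = 0.885), and lowest for HSPE1 (r = 0.423) and HSPA4 (r = 0.162), over 12 libraries.

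Among the 9243 other genes whose mean reached 5 TPM, those with the profile most like the mean of the 10 were AHSA1 (r = 0.931), the gene ENSRNOG00000018363, for which no symbol was paired (r = 0.924), STIP1 (r = 0.920), CCT8 (r = 0.913) and KPNA6 (r = 0.903). AHSA1 activates the ATPase of Hsp90, STIP1 bridges Hsp70 and Hsp90, and CCT8 is a subunit of the cytosolic chaperonin TRiC. These correlations describe 12 libraries that share their preparation, and are the highest of a large number computed.

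**Figure D4:**
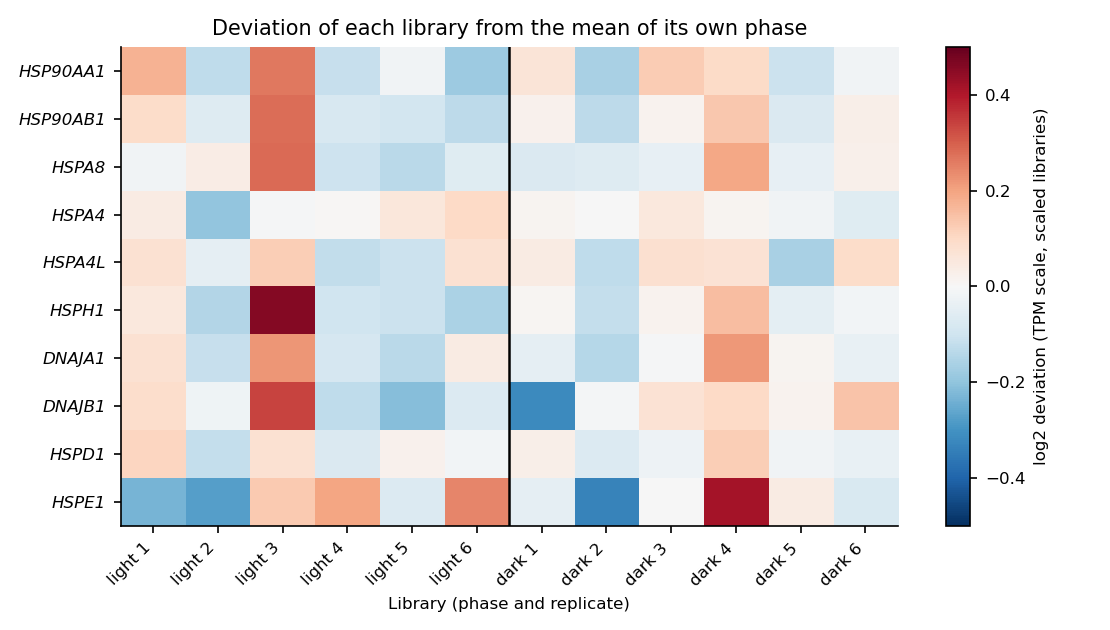
Deviation of each library from the mean of its own phase, as log2 of scaled TPM (color, from blue for lower to red for higher), for the 10 chaperones (lines) in the 6 light-phase and 6 dark-phase libraries (columns). Light-phase library 3 is red for all genes but HSPA4, and dark-phase library 2 is blue for most.

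Other genes of the chaperone network were taken as lists, of which only genes with a paired identifier could be followed. The paired set favors genes that were higher in the dark phase, since the part of the table of differing genes that was used begins with those. Counts restricted to the table of levels are therefore given as well, but this table leans the other way. Among the genes followed here, its lowest light-phase mean was 54.2 TPM (DNAJC8). HSPA4L (50.2 TPM light, 78.0 TPM dark) and FKBP4 (46.1 and 72.1 TPM) were absent from it, while TAGLN (54.7 and 31.3 TPM) was in it. In the comparison of light with dark these lists, without the chaperones of the endoplasmic reticulum, held 48 genes, of which 20 were called higher and 1 lower. Of the 34 in the table of levels 9 were called higher and 1 lower, beside 8.96% higher and 12.8% lower among all genes paired by that table. With a covariate for the library ratio of summed FPKM to summed TPM (the FPKM to TPM covariate), 5 of the 48 were called higher and 0 lower.

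Co-chaperones of Hsp90 guide its ATP cycle and its choice of clients. Of 13 with an identifier, 7 rose and 0 fell. Of the 9 in the table of levels 3 rose, namely AHSA1, STIP1 and CACYBP, beside 8.96% of all genes paired by that table. With the FPKM to TPM covariate 1 of the 13 was called, and with the replicate block 5. AHSA1 was at 84.0 ± 9.27 TPM in the light and 111 ± 7.62 TPM in the dark phase (n = 6 each, SD), without overlap of the libraries, a log2 fold change of 0.40 ± 0.07 (SE, limma, FDR = 0.00146). STIP1 changed by 0.28 (limma, FDR = 0.0304) and the calcyclin-binding protein CACYBP by 0.28 (limma, FDR = 0.0328). The immunophilin FKBP4 (log2 difference 0.64) and AHSA2 (0.77) were paired only by the table of differing genes. CDC37, which loads kinases onto Hsp90, and the phosphatase PPP5C did not pass, at 0.10 (limma, FDR = 0.104) and -0.08 (limma, FDR = 0.136) on the log2 scale. The median log2 fold change of the 9 genes was 0.09.

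Of 12 subunits of TRiC and prefoldin, which fold actin and tubulin, 4 rose by small amounts and 0 fell. All 12 were in the table of levels, of whose genes 8.96% were called higher and 12.8% lower. CCT7 changed by 0.14 (limma, FDR = 0.0165), CCT8 by 0.14 (limma, FDR = 0.025) and CCT4 by 0.12 (limma, FDR = 0.0329). The number called was between 1 and 4 when single libraries were left out, among them 1 without light-phase library 5 or dark-phase library 4, and was 1 with the replicate block and 0 with the FPKM to TPM covariate. CCT5 (0.10, limma, FDR = 0.0937) and PFDN1 (-0.10, limma, FDR = 0.197) did not pass, and the median over the 12 was 0.05.

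Among other J-domain proteins, 3 of 6 rose and 0 fell. Of the 3 in the table of levels only DNAJA4 rose and 0 fell, and their median log2 fold change was -0.05. The shares among all genes paired in that way were 8.96% called higher and 12.8% lower. DNAJA4 was at 112 ± 6.00 TPM in the light and 144 ± 7.64 TPM in the dark phase (n = 6 each, SD). Its log2 fold change was 0.35 (limma, FDR = 0.000786). DNAJB2 and DNAJC18 had log2 differences of 0.48 and 0.22, and DNAJC8, of the splicing machinery, did not pass at -0.11 (limma, FDR = 0.0509). Of 3 Hsp70 co-chaperones without a J domain, BAG6 was called (log2 difference 0.17), while STUB1, the ubiquitin ligase that marks Hsp70 clients, and ST13 had -0.11 (limma, FDR = 0.266) and -0.07 (limma, FDR = 0.274). Of other cytosolic Hsp70 proteins HSPA12A was called, with a log2 difference of 0.45, and HSPA1L was not, with one of 0.34. BAG6, DNAJB2, DNAJC18, HSPA12A and HSPA1L were paired only by the table of differing genes. The stress-inducible HSPA1A and HSPA1B were not analysed here.

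HSPB1, the small heat-shock protein Hsp27, which holds unfolded proteins without ATP, was at 106 ± 22.7 TPM in the light and 159 ± 19.7 TPM in the dark phase (n = 6 each, SD). It rose by a log2 fold change of 0.59 ± 0.12 (SE, limma, FDR = 0.00555), although the libraries overlapped, with light-phase values up to 148 TPM and dark-phase values from 129 TPM, and it was not called with the FPKM to TPM covariate. HSPB8 (-0.05, limma, FDR = 0.647) and HSPB6 (0.06, limma, FDR = 0.839) did not pass on the same log2 scale.

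In the mitochondrial list of 6 genes 2 were called higher and 1 lower. Of these genes, 4 were in the table of levels, with 0 called higher, 1 lower and a median log2 fold change of -0.13. The shares among all genes paired in that way were 8.96% called higher and 12.8% lower. HSPA9, the Hsp70 of the matrix, fell from 216 ± 7.98 TPM to 193 ± 8.67 TPM (n = 6 each, SD), without overlap of the libraries, a log2 fold change of -0.18 ± 0.04 (SE, limma, FDR = 0.00874), a call lost with the FPKM to TPM covariate. Its nucleotide exchange factor GRPEL1 had -0.12 (limma, FDR = 0.1), and the import protein DNAJC15 had -0.13 (limma, FDR = 0.233). The unfoldases CLPX and CLPB had log2 differences of 0.31 and 0.19 and were paired only by the table of differing genes.

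HSF1, the factor that binds heat-shock elements, was at 9.92 to 12.8 TPM in the light and 13.0 to 14.4 TPM in the dark phase, without overlap, and HSF2 was at 11.3 to 14.2 TPM and 10.3 to 11.8 TPM. The log2 differences were 0.29 for HSF1 and -0.15 for HSF2, and both genes were paired only by the table of differing genes. HSBP1, a small protein that binds HSF1, had a log2 fold change of -0.07 (limma, FDR = 0.372).

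**Figure D5:**
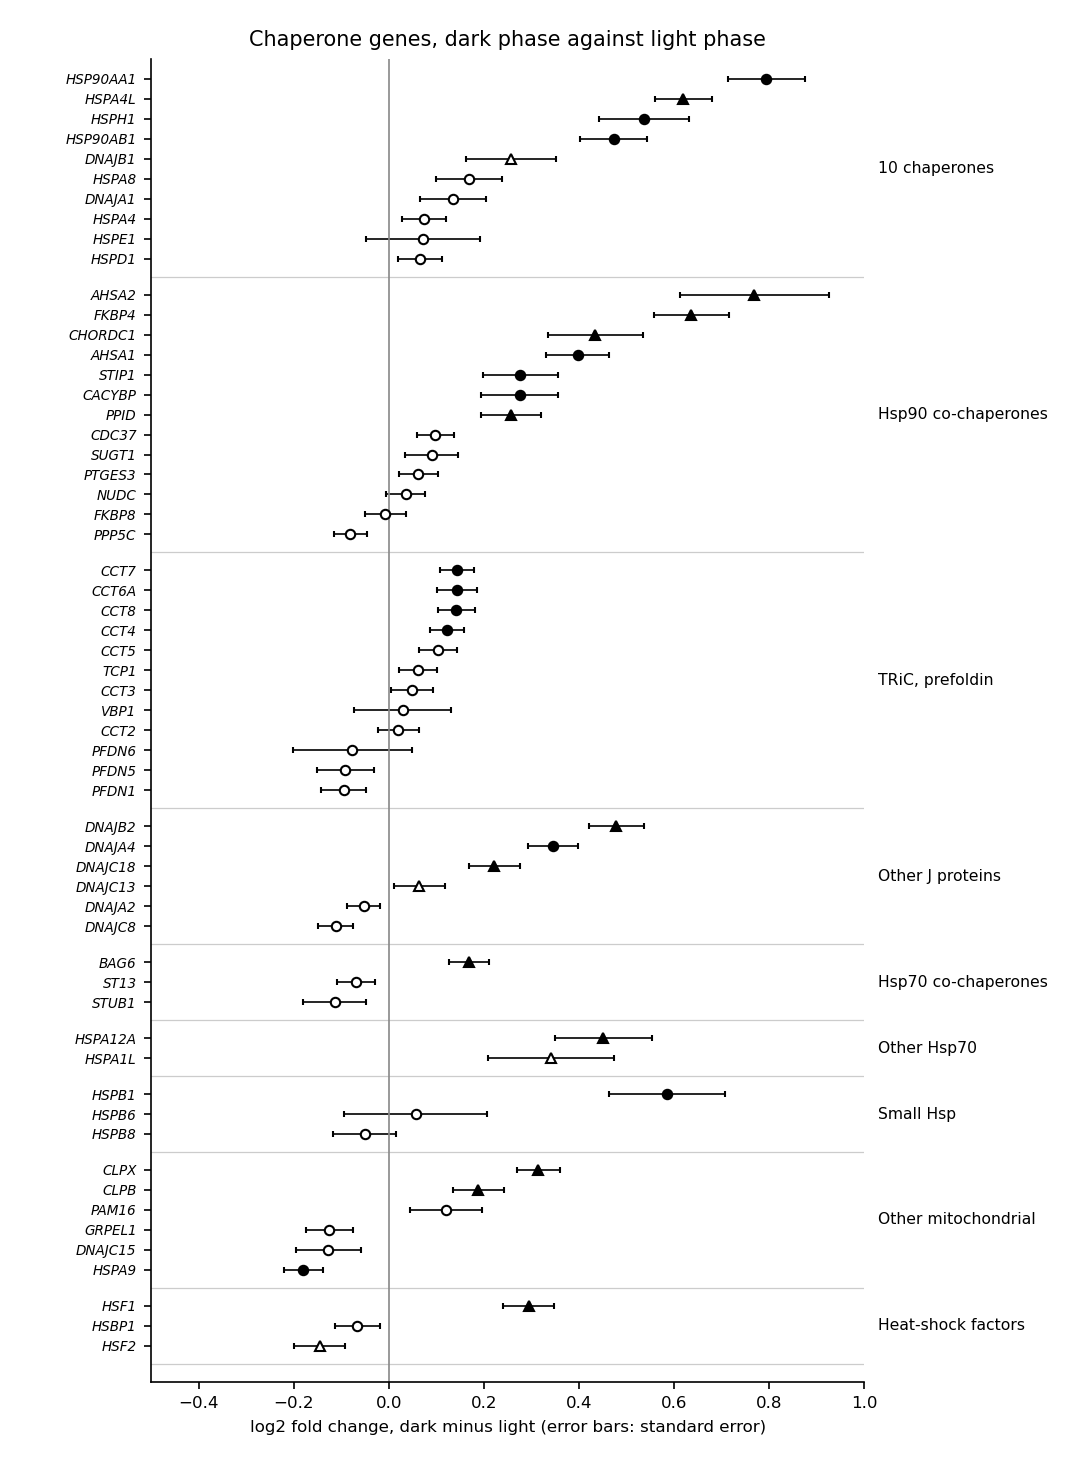
Log2 fold change of dark against light (x axis, error bars are SE) for the 10 chaperones and the other lists (lines, grouped at the right). Filled symbols are called at an FDR below 0.05 and open symbols are not; circles are genes paired by the table of levels and triangles those paired only by the table of differing genes. HSP90AA1 is the highest of the 10 chaperones at 0.79, and HSPA9 at -0.18 is the only filled symbol below 0.

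A property of the libraries moved with the phase. The total of FPKM divided by that of TPM, which depends on how long the abundant transcripts of a library are, was 0.953 to 0.987 in the light phase (median 0.971) and 0.934 to 0.960 in the dark phase (median 0.944), and the difference of -0.0261 passed a two-sided exact permutation test (p = 0.00433, n = 6 each). With this ratio as a covariate, HSP90AA1 was still called (log2 fold change 0.72, limma, FDR = 0.0119). HSP90AB1, at 0.42 (limma, FDR = 0.074), and HSPH1, at 0.52 (limma, FDR = 0.102), were no longer called, and the number of all genes called went from 2166 to 352. The phase and this ratio can be separated only in part with 12 libraries, and the part of the ratio in the results was otherwise not tested. Reads from processed copies of HSPA8, HSP90AB1, HSPD1 and HSPE1 elsewhere in the genome could be shared with these genes in the quantification, which makes their levels less certain.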

How the data were processed

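RNA from whole choroid plexus of 12 rats, 6 per phase and 1 library per rat, was extracted, prepared and sequenced by a service company with paired reads. Per the labels and methods, the authors mapped reads to Rnor_6.0 with STAR (2.7.9a) and quantified genes with RSEM (1.3.3), and they tested counts with DESeq2, labelled 3.16 in their processing notes. The authors deposited TPM for each gene and library, used here as the measured level. FPKM values deposited by the authors in the same files were used only for relative depth and for the FPKM total of each library divided by its TPM total. As TPM is no count, no count model was run.

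Each library was divided by a trimmed mean of ratios (30% of ratios and 5% of levels trimmed), 0.5 was added, and log2 values of the 12513 genes whose mean reached 1 TPM were fitted with limma 3.58.1 (R 4.3.3; lmFit, eBayes with trend) with phase as the only term and Benjamini-Hochberg adjustment at 0.05. A fold change on this scale understates the change of low genes. Exact permutation tests and figures used Python 3.11.15 (scipy 1.17.1, numpy 2.4.6, matplotlib 3.10.9, pandas 2.3.3). The pipeline was tested on simulated data. No pair of libraries held identical values. Nothing in the labels states whether rats shared a litter, cage or day.

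Symbols were paired with identifiers only through the study's tables of levels and of differing genes, both held in part. Promoters were matched by symbol in RefSeq (GRCr8), a different assembly from that of the reads. The members, lists, pairs and tests were chosen with earlier results of these data known. Named were all members, HSF1, up to 3 called genes of each list in each direction and up to 2 that were not called, by smallest p, and the 5 genes of most similar within-phase profile; CACYBP, HSPA5 and HSP90B1 were named after their values were seen. Other scalings, pseudocounts of 0.1 and 1, no filter, a filter of 5 TPM, a replicate block, the FPKM/TPM total ratio as a covariate, sample weights and leaving out each library were tried. One list of cell type markers is not reported here.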

Additional observations from a re-analysis of the deposited data

How the results depend on the processing

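Across 21 alternatives for each of the 10 chaperones, the direction changed only for HSPE1, which ran from -0.011 to 0.138 with single libraries left out (without dark-phase libraries 4 and 2) and was 0.37 with the FPKM to TPM covariate, under which HSPA4 was 0.16. When the library ratio of FPKM to TPM was a covariate, 352 genes were called in all, 2 chaperones were called higher (HSP90AA1 and HSPA4L), and the lists held 5 genes called higher and 0 lower. The cause was not tested. Leaving out each library in turn gave 1680 to 2222 genes in all, 4 to 6 chaperones called higher and 0 lower, and 14 to 21 genes of the lists higher and 1 to 2 lower. These counts of chaperones can include HSPA4L and DNAJB1, whose identifiers depended on the same difference, so calls of these genes are only a description. The 6 chaperones without light-phase library 3 included HSPA8 (0.23) and DNAJB1 (0.32). DNAJB1 was also counted without dark-phase library 1 (0.32). Genes of the lists called lower were 2 with median-of-ratios scaling, 2 without the filter, 2 with the filter of 5 TPM and 3 with sample weights. The log2 fold changes over all left-out libraries ran from 0.76 to 0.85 for HSP90AA1, from 0.45 to 0.53 for HSP90AB1 and from 0.51 to 0.63 for HSPH1.

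Libraries of the same replicate number did not deviate together (correlations -0.107 to 0.0467, 0 libraries closest to their own number). This cannot show whether rats of the same number shared a litter, cage or day. With the replicate block, 1549 genes and 4 chaperones were called, HSPA4L among them. In the exact sign-flip test over 6 number-matched differences, the log2 ratios of HSP90AA1 to HSP90AB1 (0.32, adjusted p = 0.0781) and HSPH1 to HSPA4 (0.46, adjusted p = 0.104) did not pass, and that of HSPA4L to HSPA4 was 0.54. The smallest p this design allows is 0.0312 before adjustment, so these values say little about stability. For HSPH1 to HSPA4 the libraries numbered 3 went the other way, with a ratio of 0.857 in the light and 0.833 in the dark phase. With libraries left out, the log2 ratio of DNAJB1 to DNAJA1 was 0.0863 to 0.18, the highest without dark-phase library 1. That of HSPD1 to HSPE1 was -0.0615 to 0.0607, changing sign without light-phase library 1 (0.0607), 2 (0.02) or 5 (0.01) or dark-phase library 4 (0.05) or 5 (0.0045). Depth is known only in relative terms, so no counting error is given and all errors are spreads between rats.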

Other observations

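The chaperones of the endoplasmic reticulum, which fold secreted and membrane proteins, are close relatives of the cytosolic set in part. Of 15 with an identifier, 14 rose in the dark phase and 0 fell, and of the 11 in the table of levels 10 rose, with a median log2 fold change of 0.31, beside 8.96% of all genes paired by that table called higher and 12.8% lower. HSPA5, the Hsp70 of this compartment, was at 491 ± 64.5 TPM in the light and 1000 ± 75.3 TPM in the dark phase (n = 6 each, SD), without overlap, a log2 fold change of 1.02 ± 0.07 (SE, limma, FDR = 1.46e-06). HSP90B1, its Hsp90, changed by 0.80 ± 0.06 (SE, limma, FDR = 4.1e-06), beside 0.79 ± 0.08 for HSP90AA1. The lectin chaperone CALR changed by 0.62 ± 0.03 (SE, limma, FDR = 1.71e-07), and HERPUD1, a part of the degradation machinery, did not pass, at -0.16 (limma, FDR = 0.116). None of the 14 promoter windows found for this list held a heat-shock element in either form. The 3-unit form lay in 0.798% of all windows and in 2 of the 78 windows of the other cytosolic and mitochondrial chaperone lists. These values come from the same comparison of phases as those of the cytosolic set.

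RBM3, an RNA-binding protein known to be induced by mild cold, was at 75.4 to 117 TPM in the light and 45.3 to 52.2 TPM in the dark phase, without overlap. It fell by 0.91 on the log2 scale (SE 0.08, limma, FDR = 9.72e-06). No value of body or tissue temperature was used here.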
